A study of Mus musculus with 115 samples.

Results

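The NRF1 pool held 4 constructs out of 275 in the series, measured in 3 libraries out of 115. They were taken by name: unphased_NRF1 and non_nucleosomal_NRF1, which carry an NRF1 motif, and unphased_NRF1_r and non_nucleosomal_NRF1_r, called partners here. The labels do not define the ending "_r" or the words of the 2 background names. All constructs sat at the cassette exchange locus (RMCE) of embryonic stem cells of the mouse background 129S6/SvEvTac, with no treatment named, and every library contained all 4, so each motif construct was compared with its partner inside the same library.

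NRF1 is a transcription factor that activates promoters of housekeeping and mitochondrial genes, and its GC-rich motif contains CpG dinucleotides. In mouse embryonic stem cells its binding is known to be blocked by methylation of those CpGs. NOMe-seq exposes nuclei to an enzyme that methylates cytosines in GpC wherever the DNA is accessible, so methylation of the middle base of GCH, where H stands for any base but G, reports accessibility. The cells' own methylation at CpG is read from the files named CGH. That name does not exclude a G before the C, where the enzyme can act as well, and its part in the CGH values was not tested.

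Each deposited value was a fraction with at most 1 decimal, so levels come in steps of 10 percentage points. All 456 values of the 3 libraries had this form, as did those of the BANP and REST groups, against 0.184% of values in the remaining groups. A difference between constructs of 10 percentage points in every library could therefore come from rounding alone, and only larger mean differences could not. Read depth was unknown, because the files hold no counts, and no interval or detection limit is given. Replicates 1 and 3 had the same value at 57 of 81 GCH sites, while replicate 2 matched replicate 1 at 40 and replicate 3 at 38. Replicate 2 lay 4.32 percentage points below replicate 1 on average at these sites. At CGH sites 45 to 48 of 70 values were the same between any 2 libraries. Nothing in the labels says that the replicates were separate cultures, so p-values may measure technical spread.

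Positions count along the amplicon, and its genome coordinates were not used here. Motif and partner shared 15 GCH sites in the unphased background and 20 in the non_nucleosomal background with values in all 3 libraries, and 15 and 16 CGH sites. The GCH sites found in only 1 construct of a pair lay between 180 and 199 in the unphased pair and between 181 and 200 in the non_nucleosomal pair. The stretch up to the nearest shared site on each side, 150 to 211 and 151 to 212, is called the window. Sites at lower positions are called upstream and those at higher positions downstream, without reference to strand.

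In the non_nucleosomal background, the motif construct was more accessible than its partner over the first 5 shared sites downstream of the window, at positions 213 to 292. The gains were 10 to 16.7 percentage points. Upstream of the window, none of the 13 shared sites passed (limma, 0 also at an unadjusted p under 0.05). Of the 20 shared sites 5 passed, all higher (limma with 1 pooled spread, Benjamini-Hochberg adjustment), against 25.7% called in either direction and 14.3% called higher among all 35 GCH sites of the pool, which include these 20.

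At position 213, next to the window, the motif construct was methylated at 50%, 50% and 50% in replicates 1, 2 and 3, and the partner at 40%, 30% and 30%. The 2 constructs did not overlap there, nor at 246 and 292 below, and overlapped at the rest of the 20 shared sites. The difference was 16.7 ± 5.77 percentage points (SD, n = 3; limma adjusted p = 0.000535). At position 236 the motif construct stood at 30%, 40% and 40% and the partner at 30%, 20% and 20%, a difference of 13.3 ± 11.5 percentage points (SD, n = 3; limma adjusted p = 0.00459). Replicate 1 showed no difference at this site. At position 246 the values were 30%, 40% and 30% against 20% in each library of the partner, or 13.3 ± 5.77 percentage points (SD, n = 3; limma adjusted p = 0.00459). Motif and partner were thus separated at 246 in every library.

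Farther along, position 259 read 20%, 30% and 30% with the motif and 20%, 10% and 10% in the partner, a difference of 13.3 ± 11.5 percentage points (SD, n = 3; limma adjusted p = 0.00459). The last site of the stretch, 292, was at 20% in each library with the motif and 10% in each library of the partner. Its limma adjusted p was 0.0361, but its difference of 10 percentage points is one that rounding could give. Beyond it, positions 326 and 337 went from 36.7% in the partner to 30% and 33.3% in the motif construct and did not pass. Over the 7 downstream sites the motif construct averaged 32.9% ± 1.43 and the partner 24.8% ± 3.30 (SD, n = 3 each). The within-library difference was 2.86, 11.4 and 10 percentage points in replicates 1, 2 and 3, or 8.10 ± 4.59 (SD, n = 3). Its exact sign-flip permutation p was 0.25, two-sided, the smallest that 3 libraries can give.

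Upstream in this background both constructs were near the top of the scale at part of the sites only. Between positions 59 and 93, and again at 150, both constructs lay between 86.7% and 90% on average. A stretch from 109 to 133 was nearly closed to the enzyme in both, with means from 3.33% to 23.3%. The largest upstream differences that did not pass were at 47, where the motif construct had 80% and the partner 86.7%, and at 129 and 133, where it had 10% and 23.3% against 3.33% and 16.7%. The upstream mean was 62.8% ± 2.47 with the motif and 62.1% ± 3.20 in the partner (SD, n = 3 each).

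Inside the non_nucleosomal window the motif construct had 5 GCH sites of its own and the partner 1. With the motif, accessibility went from 60%, 60% and 70% at position 181 to 50%, 50% and 60% at 200, a step that rounding could give. The partner's site at 189 had 60%, 70% and 70%. Across the window the partner fell as well, from a mean of 90% at 150 to 33.3% at 213. The window mean was 56.0% ± 5.29 with the motif and 66.7% ± 5.77 in the partner (SD, n = 3 each), over different positions, so no test was made.

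Without replicate 3 the number of sites called in this background was 2, and without replicate 2 it was 8, of which 6 were higher. The 8 included upstream positions 133 (higher) and 47 (lower), each with a limma adjusted p of 0.0413. On M-values, a log-odds scale, upstream position 129 passed as higher. Its limma adjusted p was 1.15e-08 at an offset of 0.01 and 0.000562 at 0.05. Positions 213 and 246 passed whichever library was left out. The moderated spread per site that had been planned called 1 site, at 292.

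In the unphased background, mean accessibility over the shared sites was lower in the motif construct than in its partner. Upstream, the within-library difference was −7.78, −12.2 and −3.33 percentage points in replicates 1, 2 and 3. In replicate 3 the constructs were equal at upstream positions 82, 91, 95, 98, 101, 116 and 149. Of 15 shared sites 4 passed, all lower, at positions 70, 91, 98 and 291, by 10 to 16.7 percentage points, against 11.4% called lower among the 35 GCH sites. The mean was below the partner's at 13 of 15 sites. At position 70 the motif construct had 40% in each library and the partner 60%, 50% and 60%. The difference was −16.7 ± 5.77 percentage points (SD, n = 3; limma adjusted p = 0.000535), and the constructs did not overlap. Nor did they at 291, with a difference that rounding could give. At the rest of the 15 shared sites the constructs overlapped.

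Position 91 read 40%, 30% and 50% with the motif and 50% in each library of the partner, and position 98 had the same 6 values. Both differences were −10 ± 10 percentage points (SD, n = 3; limma adjusted p = 0.0361), with equal values in replicate 3. Position 291 was at 20% with the motif and 30% in the partner in each library, with a limma adjusted p of 0.0361. Of the 4 sites, 70 was the one past what rounding could give. The next largest upstream differences, at 82, 95, 101 and 116, were −6.67 percentage points each and did not pass.

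Over the 9 upstream sites the motif construct averaged 44.8% ± 5.59 and the partner 52.6% ± 1.28 (SD, n = 3 each). Over the 5 downstream sites the means were 27.3% ± 1.15 and 30.7% ± 5.77 (SD, n = 3 each), which overlapped, with replicate 2 at 26.0% for the motif and 24.0% for the partner. The window had 5 GCH sites with the motif, from 40% in each library at 180 to 30%, 20% and 30% at 199. The partner had 2 window sites, at 181 and 195, each with 50%, 30% and 40%. At 195, the shared window site, the motif construct had 40%, 30% and 40%, and the difference of −3.33 ± 5.77 percentage points (SD, n = 3) did not pass.

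Without replicate 1 the unphased count fell from 4 to 1, position 70, with 6 sites at an unadjusted p under 0.05. Treating motif and partner libraries as unpaired, with no replicate block, also left 1, position 70, and the moderated spread 1, position 291.

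CpG methylation in the unphased background was lower in the motif construct than in its partner. Of 15 shared CGH sites 8 were lower and 1 higher (limma with 1 pooled spread), against 32.3% called in either direction, 25.8% called lower and 6.45% called higher among the 31 CGH sites of the pool. The 2 largest losses, each of 23.3 percentage points, were at position 210, just inside the downstream edge of the window, and at 270. The mean over the 15 sites was 32.7% ± 2.91 with the motif and 40.4% ± 1.54 in the partner (SD, n = 3 each). The within-library difference was negative in each library, at −4, −7.33 and −12 percentage points in replicates 1, 2 and 3. It averaged −7.78 ± 4.02 (SD, n = 3; exact sign-flip permutation p = 0.25, two-sided, the smallest that 3 libraries can give).

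At position 210 the motif construct was methylated at 30%, 30% and 20% in replicates 1, 2 and 3, and the partner at 50% in each. The difference was −23.3 ± 5.77 percentage points (SD, n = 3; limma adjusted p = 4.88e-07). At 270 the motif construct had 40%, 40% and 30% and the partner 60% in each library, with the same difference, SD and adjusted p. Neither site overlapped between constructs, which also held at 68 and 93 and at 169 in the non_nucleosomal background, with differences that rounding could give. At the rest of the 31 CGH sites of the pool the constructs overlapped. At 246 the values were 30%, 20% and 20% against 30%, 40% and 40%, or −13.3 ± 11.5 percentage points (SD, n = 3; limma adjusted p = 0.00628), with no difference in replicate 1. These 3 sites were past what rounding could give, of 9.68% of CGH sites with a mean difference over 10 percentage points.

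The other lower sites, at 68, 89, 93, 102 and 264, each differed by −10 percentage points (limma adjusted p = 0.0270). The losses at 68 and 93 were seen in every library. Position 106 went the other way, at 30%, 30% and 20% with the motif and 10%, 20% and 20% in the partner, or 10 ± 10 percentage points (SD, n = 3; limma adjusted p = 0.0270). Differences at 96 and 110, −6.67 percentage points each, and at 60, −3.33 percentage points, did not pass. The remaining shared window site, 168, read 20%, 30% and 20% with the motif and 20% in each library of the partner, and did not pass.

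The window CpGs found in only 1 construct of the unphased pair were at intermediate levels in both. Sites 173 and 197 of the motif construct each had 30%, 30% and 20%. Sites 184 and 191 of the partner each had 20%, 30% and 30%. Over the 4 CGH sites in each window the means were 25.8% ± 5.20 with the motif and 30.8% ± 2.89 in the partner (SD, n = 3 each), over positions that are partly different.

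Without replicate 2, and likewise without replicate 3, the count of unphased CGH calls was 2 in place of 9. Positions 210 and 270 passed whichever library was left out, though they missed the threshold with the moderated spread planned (limma adjusted p = 0.0653 for each), which called 68 and 93 in their place.

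In the non_nucleosomal background CpG methylation was low in both constructs, and no site differed by more than 10 percentage points. Of 16 shared sites 1 passed, as higher. Among the 31 CGH sites of the pool, which include these 16, 32.3% were called in either direction and 6.45% higher. The site was position 169, inside the window, at 10% in each library with the motif and 0% in each library of the partner. Its limma adjusted p was 0.0270, and rounding could give the difference. Its neighbour inside the window, 211, read 0%, 10% and 10% with the motif and 0% in each library of the partner. That difference of 6.67 percentage points did not pass. Differences of the same size, higher at 234 and lower at 73 and 330, did not pass either. The mean over 16 sites was 18.1% ± 1.25 with the motif and 17.9% ± 2.01 in the partner (SD, n = 3 each). The window CpGs specific to 1 construct, 174 and 198 with the motif and 179 and 186 in the partner, were all listed at 0% in each library.

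Leaving out replicate 1 gave 3 non_nucleosomal CGH calls, all higher, while leaving out replicate 2 or 3 gave 0, also at an unadjusted p under 0.05.

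Within the non_nucleosomal amplicon, high and low CGH sites alternated over short distances. Positions 45, 66 and 87 had means of 63.3%, 63.3% and 46.7% with the motif, while 70, 73, 79 and 83 between them had 10% or less. In the partner 45, 66 and 87 had the same means. Whether a G precedes the cytosine at these positions was not tested.

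The backgrounds were compared at sites lined up by position. Offsets of 23 bp up to unphased position 116 and −1 bp from 149 on aligned the most sites. In all, 14 GCH and 14 CGH sites with complete values in all constructs were matched. The match rests on spacing and not on sequence. Accessibility was higher in the non_nucleosomal background in every library at 8 of the 9 matched upstream sites, in both constructs. The mean gap at these sites was 30 to 40 percentage points in the partner and 40 to 50 in the motif construct. The nearly closed non_nucleosomal sites from 109 to 133 have no match and are not in this comparison. Over all shared upstream sites the means were 62.1% and 52.6% in the partner and 62.8% and 44.8% in the motif construct, non_nucleosomal first. The first site, at 56 and 33, differed by 6.67 percentage points in each pair and did not pass. With the motif 10 of 14 GCH sites were higher in the non_nucleosomal background, which is 71.4%, and in the partner 11 passed, or 78.6%, of which 8 were higher and 3 lower, which is 57.1% and 21.4%. The 3 lower sites, at 245, 258 and 291, were downstream, by 13.3 to 23.3 percentage points.

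CpG methylation ran the other way at most matched sites. With the motif 12 of 14 sites passed, or 85.7%: it was lower in the non_nucleosomal background at 10, or 71.4%, and higher at 2, or 14.3%. In the partner it was lower at 11 of 14 sites, or 78.6%. At position 210, matched to 211, the partner had 50% in each unphased library and 0% in each non_nucleosomal one. At 270, matched to 271, it had 60% and 10%. With the motif, the same 2 sites had means of 26.7% and 36.7% in the unphased background and 6.67% and 10% in the non_nucleosomal one.

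The motif-minus-partner difference in accessibility was itself higher in the non_nucleosomal background at 7 of 14 matched GCH sites, or 50% (limma on the difference within each library). All 5 downstream sites were among them. At 258, matched to 259, the difference was −6.67 percentage points unphased and 13.3 non_nucleosomal, a gap of 20 ± 10 (SD, n = 3; limma adjusted p = 0.00439). At 291, matched to 292, it was −10 and 10, a gap of 20 in each library (limma adjusted p = 0.00439). At 245, matched to 246, it was −3.33 and 13.3 (limma adjusted p = 0.0156). At 258, 291 and 245 the motif construct did not pass between backgrounds, with 30%, 20% and 30% unphased and 26.7%, 20% and 33.3% non_nucleosomal. The partner passed as lower there, with 36.7%, 30% and 33.3% unphased and 13.3%, 10% and 20% non_nucleosomal. At 212 and 235 the motif construct passed as higher in the non_nucleosomal background, by 20 and 10 percentage points, and the partner did not pass. Upstream, 2 of 9 sites passed. A gap between differences holds 4 rounded values, so one of up to 20 percentage points could come from rounding alone, which covers all 7 sites. Without replicate 1 none of the 14 passed, with 3 at an unadjusted p under 0.05, and without replicate 2 or 3 there were 3 each. The moderated spread called 2, of which 291 was among the 7 and 70, matched to 47, was not.

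For CpG methylation the motif-minus-partner difference in percentage points was not the same in both backgrounds at 2 of 14 matched sites, or 14.3%. At 210, matched to 211, it was −23.3 percentage points unphased and 6.67 non_nucleosomal, a gap of 30 ± 10 (SD, n = 3; limma adjusted p = 0.00011). At 270, matched to 271, it was −23.3 and 0 (gap 23.3 ± 5.77, SD, n = 3; limma adjusted p = 0.0015). Both gaps were past what rounding could give. The non_nucleosomal partner was at 0% at 211 and 10% at 271 in each library, so a loss of the unphased size could not occur there, and the gaps do not show that the motif acted differently in the 2 backgrounds. The count was 7 without replicate 1. Without replicate 3 it was 0, with 2 at an unadjusted p under 0.05.

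Over the whole amplicon the accessibility difference was −7.33, −6.67 and −4 percentage points in the 3 unphased comparisons and 1.5, 5 and 3.5 in the non_nucleosomal ones. The signs were opposite in every library. The gap averaged 9.33 ± 2.13 percentage points (SD, n = 3; exact sign-flip permutation p = 0.25, two-sided, the smallest that 3 libraries can give).

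The unphased_NRF1 construct was also measured, with unrounded values, in another pool of 8 unphased constructs with 2 libraries. All 19 of its GCH sites lined up after a shift of 48 bp. Its mean accessibility was 47.9% ± 0.712 there (SD, n = 2) and 37.7% ± 4.09 in the NRF1 pool (SD, n = 3). All 19 sites passed, or 100%, of which 18 were lower in the NRF1 pool, or 94.7%, and 1 was higher, or 5.26% (limma with 1 pooled spread). With the other pool's values rounded to 1 decimal as well, 17 sites passed, 16 lower and 1 higher, and positions 82 and 291 did not. Pool and library batch cannot be told apart here. The site that was higher was the first, at 56, with 56.7% ± 5.77 (SD, n = 3) against 34.3% ± 0.804 (SD, n = 2). The largest loss, −17.2 percentage points, was inside the window at 199. Without replicate 1 of the other pool 1 site passed, with 6 at an unadjusted p under 0.05. Without its replicate 2 the count was 2, where the library left alone is assumed to vary like the others. Without replicate 1 of the NRF1 pool it was 12.

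That pool held no unphased_NRF1_r, so unphased_NRF1 was set against the mean of its 3 constructs named "_r" (NFYB_r, TGIF1_r and TRP53_r) in the same library. There 7 of 14 sites passed, or 50%, with the motif construct higher at 6, or 42.9%, and lower at 1, position 56, or 7.14% (limma with 1 pooled spread). At 212, the first shared site downstream of the window, it had 47.3% and 41.9% in replicates 1 and 2, and the mean of the "_r" constructs was 36.6% and 32.4%. The difference was 10.1 ± 0.816 percentage points (SD, n = 2; limma adjusted p = 0.000382). The 3 "_r" constructs were averaged within each library before the test, so p-values and SDs leave out the spread among them. Whether unphased_NRF1 lay outside their range was not tested. Over the 5 downstream sites it was 4.82 ± 0.875 and over the 9 upstream sites 2.63 ± 0.772 percentage points (SD, n = 2). In the NRF1 pool the corresponding differences against unphased_NRF1_r were −3.33 ± 4.62 and −7.78 ± 4.44 (SD, n = 3). The references differ, and the difference between the pools was not tested.

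CGH values of 2 other constructs, CTCF_tile5_BANP and CTCF_tile5_REST, give a scale for these levels. The BANP construct in cells given DMSO averaged 52.9% ± 4.04 (SD, n = 2) over its 21 CGH sites and the REST construct in embryonic stem cells 55.9% ± 4.10 (SD, n = 3) over 18. The 4 NRF1 pool constructs averaged 15.9% to 38.8% over all their sites with complete values. These levels cover different sequences and were not tested against each other.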

How the data were processed

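Amplicon NOMe-seq values came from 3 libraries of the NRF1 pool, with 2 of another pool for unphased_NRF1 and 5 BANP and REST libraries for CpG levels. Trimming used Trimmomatic 0.32 according to the submitters' processing notes. Aligner, methylation caller, coverage filter and build are not given in the sources used here. Per cytosine position and construct, the authors deposited 1 fraction, with no counts, so depth and its precision are unknown. Construct sequences were not used here.

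Fractions were taken as percentages. Sites with a value in both constructs and every library were used, and of 495 values in the NRF1 pool 39 were missing. Motif minus partner was taken within each library, since both came from the same library. The design foresaw limma's moderated spread per site. Rounding left 10 of 35 GCH sites with a spread of 0, and each site that fit called (2 GCH, 3 CGH) had a spread of 0. Instead, limma fits (limma 3.58.1, R 4.3.3) used 1 spread pooled over the sites of an assay, chosen after the values were seen, with Benjamini-Hochberg adjustment over those sites at 0.05, two-sided. The pooled spread includes the sites with a spread of 0, and its degrees of freedom come from all sites together. Each p-value of a pooled fit rests on that spread and not on the SD printed beside it. With each background fitted alone, the GCH standard error went from 3.74 percentage points to 4.39 (unphased) and 3.16 (non_nucleosomal). Neighbouring sites are not independent. Region means used exact sign-flip permutation. Flanks lay within 40 bp of the window.

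Sites named are all that passed (at most 9 per background and assay), the 3 largest differences that did not, those inside the window, and others that show the range. Members and tests were chosen with earlier results of these data known. Upstream and downstream regions, matched sites and the "_r" reference in the other pool were added after seeing the values. Python 3.11.15, numpy 2.4.6 and pandas 2.3.3 were used.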

Additional observations from a re-analysis of the deposited data

Results flagged for a closer look

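The motif-minus-partner difference, in percentage points, differed between backgrounds by limma on the within-library difference at 9 matched sites. These were 7 of 14 matched GCH sites, or 50%, and 2 of 14 matched CGH sites, or 14.3%. For accessibility the non_nucleosomal value was above the unphased one by 13.3 percentage points at 91 (matched to 68), 98 (to 75), 212 (to 213) and 235 (to 236), by 16.7 at 245 (to 246), and by 20 at 258 (to 259) and 291 (to 292). For CpG methylation it was above by 30 at 210 (to 211) and by 23.3 at 270 (to 271). Rounding alone could give a gap of up to 20, so the CpG sites alone were past it. At these the non_nucleosomal partner was at 0% (211) and 10% (271) in each library, which leaves no room for a loss of the unphased size. At 245, 258 and 291 the partner passed as lower in the non_nucleosomal background and the motif construct did not pass. Without replicate 1 none of the 14 GCH sites passed, and without replicate 3 none of the 14 CGH sites did. With the moderated spread, 291 was the only one of the 7 GCH sites that passed.

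In 2 regions every library moved one way in the unphased background and the opposite way in the non_nucleosomal one. For accessibility over the amplicon the gap was 9.33 percentage points. For CpG methylation at the 2 shared window sites it was 18.3 percentage points, from −10 unphased to 8.33 non_nucleosomal. The non_nucleosomal partner was at 0% at both window sites in each library, so its difference could not be negative. With 3 libraries the exact sign-flip permutation test cannot go below 0.25, so a difference between the backgrounds over these regions could not pass a threshold.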

How the results depend on the processing

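Sites called, motif against partner, were recounted under each setting. GCH non_nucleosomal calls (5) became 1 with a moderated spread per site, with or without a trend on the level. GCH unphased calls (4) became 1 with either moderated spread, with the M-value at an offset of 0.01, with each background fitted alone and with no replicate block, and 2 with an offset of 0.05. CGH unphased calls (9) became 2 with either moderated spread or the offset of 0.01, 4 with 0.05 and 3 with each background alone. CGH non_nucleosomal calls (1) became 4, 3 and 5 under those last 3 settings. Without pairing (no replicate block) the other counts were 4 (GCH non_nucleosomal), 9 and 1 (CGH). Pairing by library is by construction, since both constructs share a library. Matched GCH effects (7) became 2, only 1 of them among the 7, and sites between pools (19) became 11 with the moderated spread. Between the pools, same-numbered libraries share only a number (correlations of deviations −0.192 and −0.205), and a replicate block gave 19.

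Leaving out 1 library gave ranges of 2 to 8 (GCH non_nucleosomal), 1 to 4 (GCH unphased), 2 to 10 (CGH unphased), 0 to 3 (CGH non_nucleosomal), 0 to 3 (matched GCH effects), 0 to 7 (matched CGH effects) and 1 to 19 (between pools). The CGH difference at unphased position 60 ranged from −10 to 5 percentage points and reversed without replicate 1, and the cause was not tested.

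Medians over sites in place of means moved the GCH motif-minus-partner difference to −10 (unphased amplicon), 8.33 (non_nucleosomal amplicon), 13.3 (non_nucleosomal flank), −6.67 (non_nucleosomal distal) and 3.33 (unphased downstream) percentage points, and the gap between backgrounds to 18.3 (amplicon), 16.7 (flank), 0 (distal) and 3.33 (downstream). For CGH they moved the non_nucleosomal difference to −3.33 (flank and distal) and −6.67 (upstream and downstream), and the flank gap to 0. With a flank of 20 bp the non_nucleosomal distal difference was 2.55 (GCH) and −0.952 (CGH). The non_nucleosomal CGH window difference over all sites of each construct was 4.17. The other 160 recomputed counts and region values stayed within 1.5 times the count or 1 SD of the value. Rounding to 10 percentage points, unknown depth and 3 libraries limit precision, and the effect in the other pools could not be computed against the planned partner.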
